A study of Mus musculus with 18 samples.

Results

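The genes described here are 38 genes of peroxisomes and of fatty acid oxidation, followed in mouse immune cells before and after a cell wall extract. They were chosen by gene symbol, and each is represented by the probe set with the highest mean log2(signal + 16) over all arrays. The 38 genes are 38 of 18194 genes with a probe set that carries a single symbol, and they hold 76 of the 45101 probe sets on the array. By role they are 3 ABC transporters of the ABCD family, 9 peroxisomal oxidation enzymes, 2 enzymes of ether lipid synthesis and 12 peroxins. The rest are 4 genes of the carnitine shuttle, 5 enzymes of mitochondrial beta oxidation and 3 PPAR receptors. Total RNA was hybridised to 18 Affymetrix arrays, 6 taken at 0 h without treatment, 6 at 1 h and 6 at 4 h after the extract. The design text says that knockout mice were used and the title names TLR2, but no label gives the genotype, strain, age or cell type of a sample, or the dose or source of the extract, so the groups are defined by time alone. Each title carries an array code, from 12 to 22 on 6 arrays, from 32 to 37 on 6 and from 44 to 54 on 6, and each of these ranges has a pair of arrays for every time; the labels do not say what the ranges are. No label ties the arrays to separate mice or cultures. The p-values then measure only how far these samples spread, which may be technical, and each fold change averages over samples that may differ in genotype.

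Peroxisomes shorten fatty acids that mitochondria handle poorly: very long chains, branched chains such as phytanic acid, and dicarboxylic acids. They also make the first intermediates of ether lipids, and their catalase removes the hydrogen peroxide that their oxidases release. Mitochondria oxidise the common long and medium chains, and the carnitine shuttle carries long chain acyl groups across the inner membrane. PPAR receptors are nuclear receptors that bind fatty acids and, with RXR, switch on many genes of both organelles. In macrophages fatty acid oxidation is a well known part of the metabolic state at rest and under alternative activation.

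Signals are on the linear scale of the deposited table. Every fold change is on the log2(signal + 16) scale, which understates the change of dim genes, and "rose" or "fell" means an adjusted p under 0.05 in a limma fit over 25804 probe sets. The labelled immune cells were checked against marker lists. All 14 macrophage markers were bright enough to be tested, with a summed signal from 194200 to 239500 at 0 h, from 200400 to 253700 at 1 h and from 200400 to 247100 at 4 h. Single macrophage markers moved at 4 h: Marco rose by 4.21, Msr1 by 1.82 and Cd14 by 0.84 on the log2 scale, while Mertk fell by 2.70 and Cd163 fell by 1.01. The filter passed 1 of 8 T cell, 1 of 7 B cell, 2 of 6 NK cell, 3 of 7 dendritic cell, 6 of 10 neutrophil and 7 of 9 stromal markers with a probe set. None of 3 adipocyte and none of 4 hepatocyte markers passed, which are cell types rich in the transcripts described here. By time, summed signals of the dendritic cell markers were 357 to 484 at 0 h, 373 to 547 at 1 h and 581 to 832 at 4 h, and 1 of the 3 tested, Itgax, rose at 4 h by 1.66. The B cell marker that was tested, Cd79b, fell by 1.44 (adjusted p = 0.0214), with summed signals of the B cell list of 333 to 667, 202 to 637 and 200 to 436. None of the 6 neutrophil markers passed at 4 h, and their list's summed signals were 886 to 4203, 1183 to 4448 and 1003 to 5720. Those of the stromal markers were 1093 to 17510, 1240 to 15990 and 1398 to 13830, and those of the cell cycle genes 9456 to 40290, 10280 to 43270 and 8237 to 38030. The part of these cells in the time comparisons was not tested. In bulk samples such as these, fewer cells of a type and less RNA per cell cannot be told apart.

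At 1 h no gene of the set had moved past the threshold. Of the 38 genes 37 were tested, and 0 of them rose or fell at 1 h, where 0.612% of all probe sets rose and 0.14% fell. A block for the code range left the count at 0, and at an unadjusted p under 0.05 there was 1 gene, Pex10, with a log2 fold change of -0.70 ± 0.31 (SE, adjusted p = 0.667). The 1 h values lay between -0.70 and 0.17 on the log2 scale, 28 below 0 and 9 above, with a median of -0.09 against -0.04 over all probe sets.

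At 4 h against 0 h, 22 of the 37 genes fell, 1 rose and 14 did not pass. Over all probe sets 23.1% fell and 9.93% rose. The median log2 fold change was -0.52 for the genes and -0.22 over all probe sets. By role, all 4 carnitine shuttle genes, 7 of 9 peroxisomal oxidation enzymes, 2 of 3 transporters, 1 of 2 enzymes of ether lipid synthesis, 5 of 12 peroxins, 2 of 5 enzymes of mitochondrial beta oxidation and 1 of the 2 tested receptors fell. Both comparisons of 4 h use the same 6 arrays at 4 h. Against 1 h, 18 of the 37 genes fell and 0 rose, beside 16.7% and 7.7% of all probe sets, with a median of -0.51 against -0.17. These 18 are among the 22, and the other 4 (Pex2, Pex10, Slc25a20 and Hadhb) passed in this fit against 0 h alone, which does not show that they differ from the rest. With a block for the code range 20 genes fell against 1 h, the same 18 with Slc25a20 (adjusted p = 0.00375) and Hadha (adjusted p = 0.0331). The share of all probe sets called in the blocked fit is not given here, so that count lacks a background.

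The counts depend on how the arrays are scaled. The deposited scaling left the median probe set lower at 4 h, and the part of that shift in the counts was not tested. With each array centred on its median, the median change of all probe sets was 0.03, 16.2% rose and 11.2% fell, and 11 of the genes fell and 1 rose, with a median of -0.28. By role the falls were then 1 of 4 carnitine shuttle genes, 6 of 9 peroxisomal oxidation enzymes, 1 of 3 transporters, 2 of 12 peroxins, 1 of 5 enzymes of mitochondrial beta oxidation, and 0 in ether lipid synthesis and among the receptors. Quantile normalization gave 16 falls and 1 rise with a median of -0.38, beside a median of -0.06 and shares of 12.5% and 14.8% for all probe sets rising and falling. The falls by role were then 2 of 4 shuttle genes, 7 of 9 oxidation enzymes, 1 of 3 transporters, 4 of 12 peroxins, 2 of 5 mitochondrial enzymes and 0 in the other roles. The 11 genes that fell under both of these scalings and under the deposited one were Abcd2, Acox3, Hsd17b4, Scp2, Ehhadh, Hacl1, Amacr, Pex10, Pex26, Cpt1a and Acadm. None of the 22 changed direction under either scaling. The arrays of 4 h lay wholly below those of 0 h for 10 of the genes and wholly above for 0, where 11.3% and 5.59% of all probe sets did so.

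**Figure D1:**
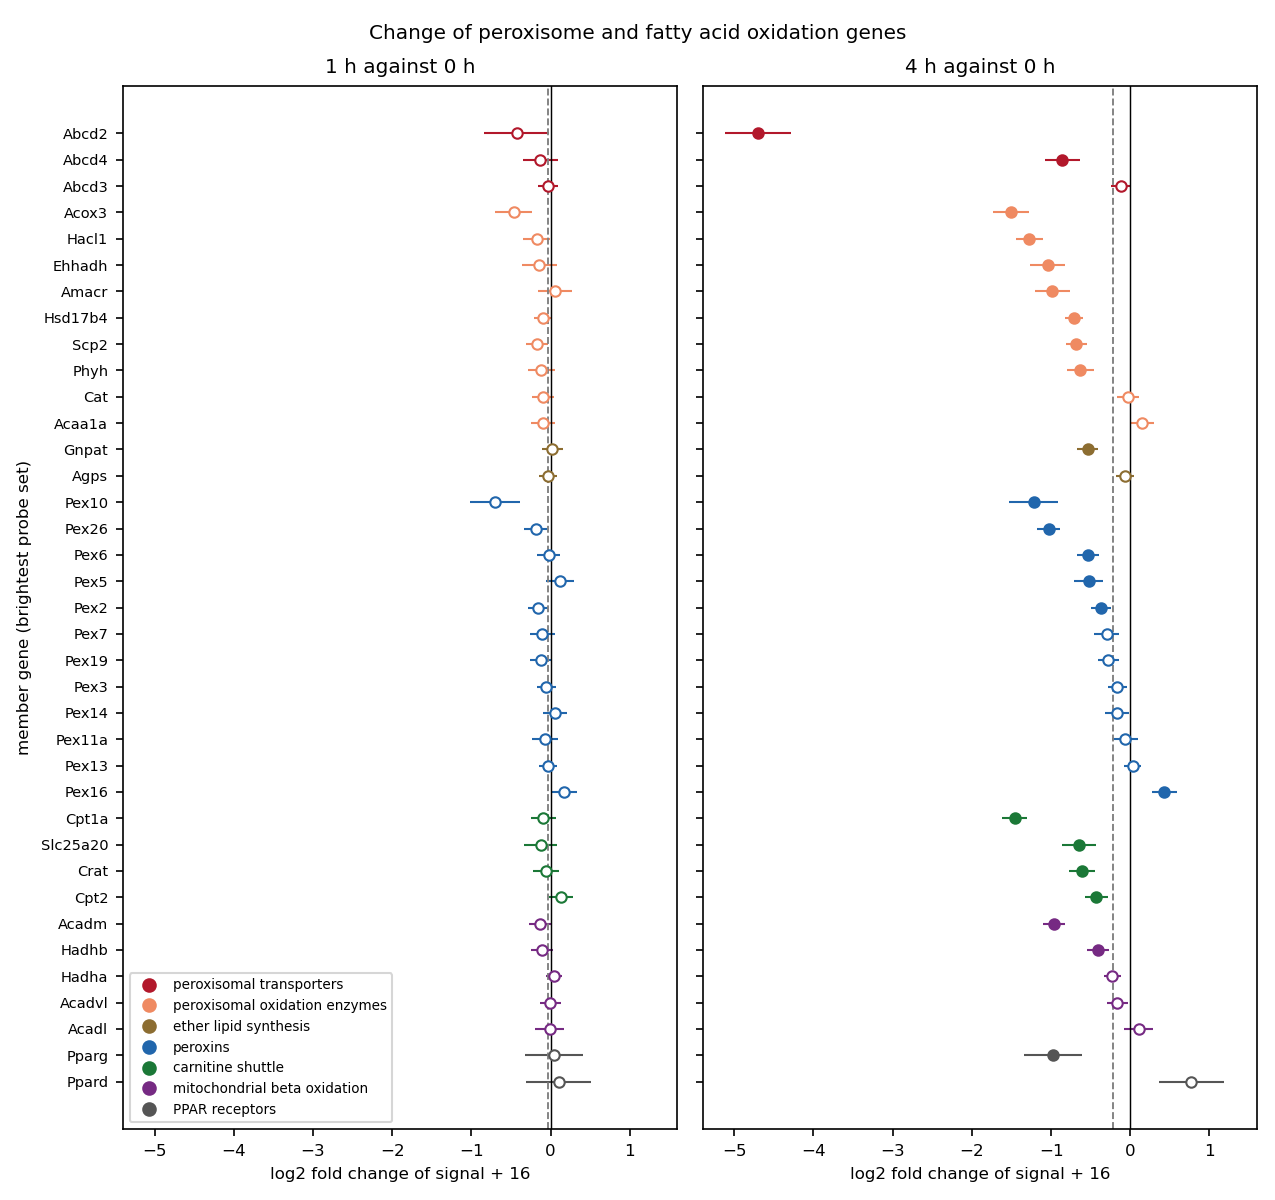
Log2 fold change of signal + 16 (horizontal axis) with its SE for the 37 tested genes at 1 h and at 4 h against 0 h, coloured by role; filled points passed adjusted p 0.05 and the dashed line is the median of all probe sets. At 1 h all points are open, and at 4 h Abcd2 lies far to the left at -4.70 while Pex16 at 0.43 is the filled point on the right.

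Promoters were read for the genes that the time comparison turns on. RefSeq windows of 250 bases upstream of the start were found for 31 of the 38 genes (37 windows, build GRCm38.p6). Those printed are the 3 largest falls at 4 h among genes with a window, Acox3, Cpt1a and Hacl1, and Hadhb, whose window shares 228 bases with that of Hadha on the opposite strand; they were chosen after the values were seen. Capitals mark 4 motifs, on either strand: AGGTCA, the core letters bound by nuclear receptors such as the PPARs, CCAAT, the GC box GGGCGG, and the E-box CACGTG. The coordinates are chr5:35582784-35583033 (+) for Acox3, chr19:3323051-3323300 (+) for Cpt1a, chr14:31640966-31641215 (-) for Hacl1 and chr5:30155003-30155252 (+) for Hadhb.
Acox3: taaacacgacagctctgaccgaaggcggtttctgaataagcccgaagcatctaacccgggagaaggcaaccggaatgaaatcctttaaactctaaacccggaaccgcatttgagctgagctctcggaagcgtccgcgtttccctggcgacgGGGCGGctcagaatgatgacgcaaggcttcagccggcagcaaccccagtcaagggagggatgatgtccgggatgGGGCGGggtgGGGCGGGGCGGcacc
Cpt1a: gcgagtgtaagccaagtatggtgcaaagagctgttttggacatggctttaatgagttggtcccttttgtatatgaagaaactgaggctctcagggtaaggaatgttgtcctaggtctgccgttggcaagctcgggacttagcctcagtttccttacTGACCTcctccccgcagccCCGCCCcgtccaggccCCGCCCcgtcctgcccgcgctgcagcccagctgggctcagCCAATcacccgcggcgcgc
Hacl1: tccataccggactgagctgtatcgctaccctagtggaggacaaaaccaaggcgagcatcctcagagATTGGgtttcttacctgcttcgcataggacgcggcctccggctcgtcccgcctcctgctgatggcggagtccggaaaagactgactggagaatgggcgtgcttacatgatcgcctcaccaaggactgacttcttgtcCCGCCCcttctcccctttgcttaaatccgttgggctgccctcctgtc
Hadhb: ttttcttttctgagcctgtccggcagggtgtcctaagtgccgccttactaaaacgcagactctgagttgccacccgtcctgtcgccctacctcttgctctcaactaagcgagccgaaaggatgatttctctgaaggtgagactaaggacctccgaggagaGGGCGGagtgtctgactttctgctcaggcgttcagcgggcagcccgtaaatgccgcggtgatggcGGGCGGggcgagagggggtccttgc

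In these windows AGGTCA stands once, read on the opposite strand 94 to 89 bases before the start of Cpt1a. Across the 31 genes it was found in 6 (19.4%): Acadm, Acadvl, Cat, Cpt1a, Pparg and Scp2. The share was 15.8% of all genes with a window and 13.1% of those tested. Of these 6, Acadm, Cpt1a, Pparg and Scp2 fell at 4 h and Acadvl and Cat did not pass, beside 22 falls among the 37 tested genes of the set. The call of Pparg was lost with median centring and with quantile normalization. A link between the motif and the falls was not tested. The direct repeat of AGGTCA with a spacer of 1 base, the DR1 element that PPAR and RXR are known to bind and that holds AGGTCA by construction, was found for 0 of the 31 genes and in 0.0407% of all genes. CACGTG was found for 1 gene, Gnpat (3.2%, against 6.86% of all and 9.86% of tested genes), and CCAAT for 11 (35.5%, against 37.5% and 40.3%). GGGCGG was found for 23 genes (74.2%), against 35.4% of all genes and 63.0% of those tested. The median GC content of the windows was 59.6%, the same as for tested genes and above 52.4% for all. These matches describe letters in a window and say nothing of binding.

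Abcd2 fell further than any other gene of the set. It encodes a peroxisomal ABC transporter that imports very long chain and polyunsaturated acyl groups. Its signal (lowest, median and highest of 6 arrays) was 264, 587 and 1131 at 0 h, 115, 531 and 886 at 1 h, and 1.09, 3.88 and 12.1 at 4 h. Every array at 4 h was below the pseudocount of 16 and far below the lowest array of either earlier time. The log2 fold change was -4.70 ± 0.41 (SE, n = 6 against 6, adjusted p = 2.43e-07) against 0 h and -4.27 ± 0.41 (adjusted p = 1.37e-06) against 1 h. Because the 4 h signals are under the pseudocount, the size depends on it: over all alternatives it ran from -6.59 to -3.13 and stayed past the threshold. The 2 further probe sets of Abcd2 that passed the filter had log2 fold changes of -4.41 and -3.26, both past the threshold. Within the code ranges the change was -5.09 in 12 to 22, -3.83 in 32 to 37 and -5.19 in 44 to 54. With every 4 h signal under the pseudocount, differences between these values mostly repeat the differences in the 0 h signals.

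The other transporters moved less. Abcd4, of the same family and known for cobalamin export from lysosomes, had signals of 274, 332 and 336 at 0 h and 109, 165 and 319 at 4 h, and fell by 0.86 ± 0.22 on the log2 scale (adjusted p = 0.007). Its highest array at 4 h lay inside the range of 0 h, and the adjusted p was 0.0522 with median centring and 0.0672 with quantile normalization. Abcd3, the abundant transporter of branched and long chains often used as a peroxisome marker, had medians of 1746 at 0 h and 1417 at 4 h and a log2 fold change of -0.12 ± 0.13 (adjusted p = 0.496). The arrays of the 2 times overlapped for Abcd3, whose highest 4 h array, 2171, was above all of 0 h.

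Of the peroxisomal oxidation enzymes, Acox3, an oxidase for branched chain acyl groups, had signals of 325, 433 and 541 at 0 h, 154, 321 and 412 at 1 h and 87.1, 127 and 238 at 4 h. All 4 h arrays were below all 0 h arrays, while 1 array of 1 h (154, replicate 3) reached down into the 4 h range. The log2 fold change was -1.51 ± 0.23 against 0 h (adjusted p = 9.27e-05) and -1.04 ± 0.23 against 1 h (adjusted p = 0.00317). Hsd17b4, the bifunctional enzyme that carries out the hydratase and dehydrogenase steps for branched and very long chains, had signals of 3445, 3826 and 4207 at 0 h and 1950, 2271 and 2830 at 4 h. Its groups did not overlap, and it fell by 0.71 ± 0.12 (adjusted p = 1.72e-04). That probe set may bind related transcripts, and the further probe set of Hsd17b4 had a smaller change, at -0.47 ± 0.13 (adjusted p = 0.0122). Scp2, the sterol carrier protein whose long form is the thiolase of that pathway, had signals of 6879, 8729 and 10470 at 0 h and 4333, 5597 and 6093 at 4 h. Its arrays did not overlap either, and the log2 fold change of -0.68 ± 0.13 (adjusted p = 7.57e-04) was close to -0.69, -0.66 and -0.68 in its 3 further probe sets, all past the threshold.

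Alpha oxidation removes a single carbon from phytanic acid and related acids before beta oxidation can start. Phyh, the hydroxylase that opens this route, had signals of 1263, 1440 and 2272 at 0 h and 862, 927 and 1369 at 4 h. It fell by 0.63 ± 0.17 (adjusted p = 0.00762), with groups that overlapped and an adjusted p of 0.115 under median centring. Hacl1, the lyase that acts next, had signals of 305, 374 and 474 at 0 h, 268, 326 and 436 at 1 h and 87.2, 156 and 181 at 4 h. All its 4 h arrays were below all arrays of both earlier times, and the log2 fold change was -1.27 ± 0.17 (adjusted p = 1.74e-05). Amacr, the racemase that turns branched chain acyl groups into the form the oxidases accept, fell by 0.98 ± 0.22 (adjusted p = 0.00217), from signals of 153, 270 and 333 at 0 h to 80.4, 117 and 209 at 4 h. The 2 times overlapped for Amacr.

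Ehhadh, the bifunctional enzyme of the straight chain pathway, was dim, with signals of 65.3, 105 and 130 at 0 h and 22.4, 32.1 and 75.8 at 4 h. It fell by 1.04 ± 0.22 (adjusted p = 0.00136) with overlapping groups. Cat, which encodes catalase, stayed bright at every time, with medians of 6624, 5899 and 6068. Its log2 fold change at 4 h was -0.03 ± 0.14 (adjusted p = 0.887), and that of its further probe set was -0.16 (adjusted p = 0.465). Acaa1a, a thiolase, had medians of 486 at 0 h and 560 at 4 h and a log2 fold change of 0.15 ± 0.15 (adjusted p = 0.464). Its further probe set had the opposite sign, at -0.50 (adjusted p = 0.23). Both its probe sets carry the suffix for probes that may bind related transcripts, so its value cannot be separated from that of the near-identical Acaa1b.

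**Figure D2:**
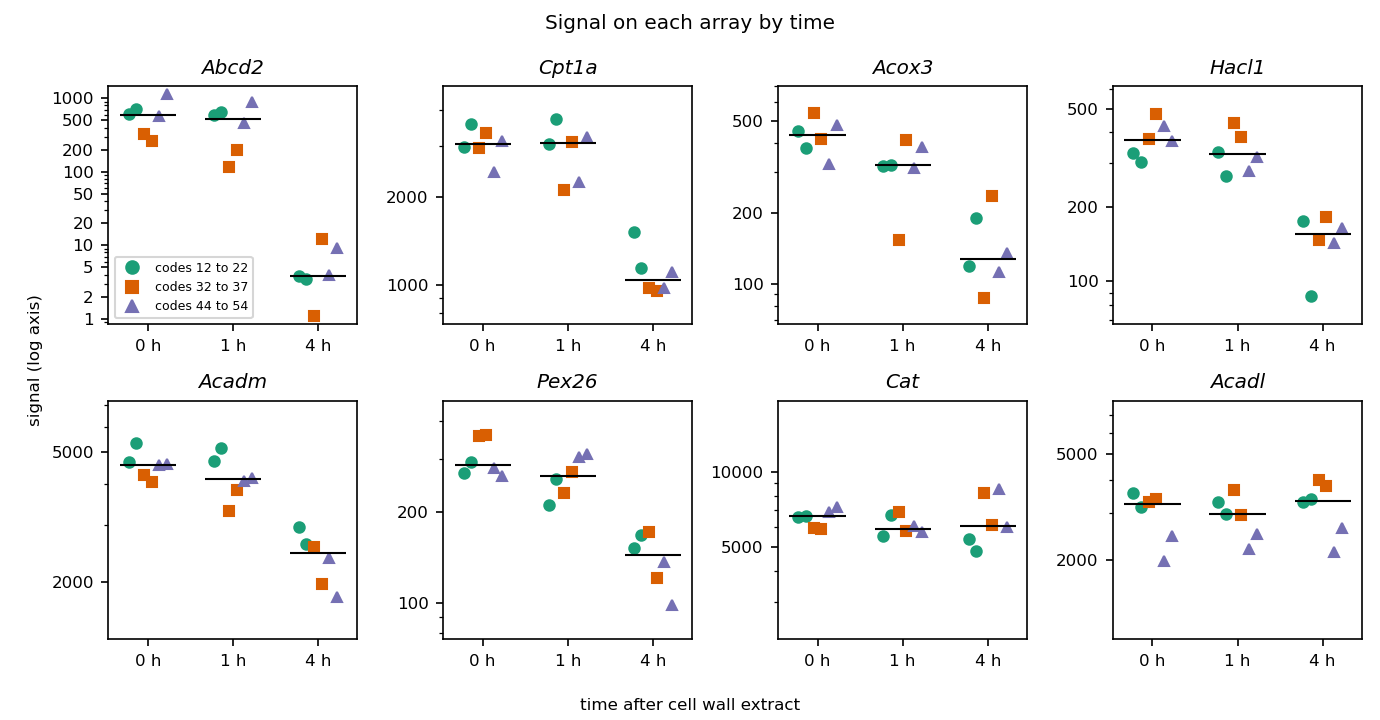
Signal (log axis) on each of the 18 arrays at 0 h, 1 h and 4 h for 8 of the genes, with marker shape and colour for the array code range and a line at the median of 6 arrays. For Abcd2, Cpt1a, Acox3, Hacl1, Acadm and Pex26 all arrays at 4 h lie below all at 0 h, while Cat and Acadl overlap at all times.

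Ether lipid synthesis starts in the peroxisome with Gnpat, an acyltransferase, followed by Agps, which puts in the ether bond. Gnpat signals were 577, 733 and 926 at 0 h, 645, 748 and 863 at 1 h and 443, 499 and 558 at 4 h, with no overlap between 4 h and either earlier time. Gnpat fell by 0.54 ± 0.13 (adjusted p = 0.00457), and its adjusted p was 0.142 with median centring and 0.0559 with quantile normalization. The log2 fold change of Agps was -0.06 ± 0.12 (adjusted p = 0.716).

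Peroxins build the organelle and bring its enzymes in. Pex26, the membrane anchor of the AAA ATPases that recycle the import receptor, had signals of 264, 287 and 359 at 0 h, 211, 265 and 313 at 1 h and 98.8, 145 and 173 at 4 h. Its 4 h arrays lay below all arrays of 0 h and 1 h, and the log2 fold change was -1.03 ± 0.14 (adjusted p = 3.30e-05). Pex6, one of those ATPases, had signals of 1305, 1597 and 1671 at 0 h and 918, 1033 and 1368 at 4 h and fell by 0.54 ± 0.14 (adjusted p = 0.0069). That probe set may bind related transcripts, and the 4 further probe sets of Pex6 gave -0.15 to -0.32, none past the threshold. The adjusted p of Pex6 was 0.135 with median centring and 0.0116 with quantile normalization, the latter still a fall. Pex10, a ring protein of the import receptor's ubiquitin ligase, had signals of 151, 252 and 324 at 0 h, 41.3, 168 and 224 at 1 h and 47.9, 104 and 139 at 4 h. It fell by 1.22 ± 0.31 against 0 h (adjusted p = 0.00596), with no overlap between the 2 times. Against 1 h its change was -0.52 ± 0.31 (adjusted p = 0.25).

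Pex2, another ring protein of that ligase, fell by 0.37 ± 0.12 (adjusted p = 0.0277), from a median of 1810 to 1432. Pex5, the receptor for the carboxyl-terminal targeting signal, fell by 0.52 ± 0.18 (adjusted p = 0.0334), from a median of 306 to 223. For both genes a further probe set also fell, with log2 fold changes of -0.76 and -1.07. These calls lie close to the threshold. With median centring the adjusted p was 0.545 for Pex2 and 0.265 for Pex5. With quantile normalization it was 0.0275 for Pex2, still a fall, and 0.321 for Pex5. Pex2 had an adjusted p of 0.0533 to 0.0681 without replicate 5 or 6 at 0 h, or 3 or 4 at 4 h, and log2 values from -0.36 to -0.32. Pex5 had an adjusted p of 0.0579 to 0.0771 without replicate 2, 3 or 4 at 0 h, or 5 or 6 at 4 h, and log2 values from -0.51 to -0.37.

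Pex16, which brings membrane proteins to the organelle, was the gene that rose. Its signals were 198, 303 and 361 at 0 h, 261, 321 and 434 at 1 h and 305, 401 and 486 at 4 h, so the times overlapped. The log2 fold change was 0.43 ± 0.16 (adjusted p = 0.0496), and its further probe set gave 0.72 (adjusted p = 0.273). Leaving out any 1 of 13 arrays (replicates 1, 2, 3, 4 and 6 at 0 h, 1 to 4 at 1 h, and 1, 2, 5 and 6 at 4 h) put the adjusted p between 0.0507 and 0.122, at log2 values of 0.33 to 0.46. The rise was larger under other scalings, at 0.68 ± 0.18 with median centring (adjusted p = 0.00937) and 0.67 ± 0.18 with quantile normalization (adjusted p = 0.01). The other 6 peroxins, Pex3, Pex7, Pex11a, Pex13, Pex14 and Pex19, ran from -0.30 for Pex7, the receptor for the amino-terminal signal, to 0.03 for Pex13, part of the docking complex. Further probe sets of Pex3 (-0.47, adjusted p = 0.0242) and Pex19 (-0.51 and -0.59, adjusted p = 0.0193 and 0.00407), which insert membrane proteins, fell where the brightest did not pass.

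The carnitine shuttle was led by Cpt1a, the rate-limiting acyltransferase of the outer mitochondrial membrane. Its signals were 2448, 3048 and 3586 at 0 h, 2114, 3081 and 3712 at 1 h and 953, 1042 and 1526 at 4 h. Every array at 4 h was below every earlier array. The log2 fold change was -1.46 ± 0.16 against 0 h (adjusted p = 2.43e-06) and -1.37 ± 0.16 against 1 h (adjusted p = 7.70e-06), and the 2 further probe sets fell as well, at -1.70 and -1.45. In the code ranges it was -1.29, -1.69 and -1.40.

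The other shuttle genes moved by less. Slc25a20, the carrier that exchanges acylcarnitine for carnitine across the inner membrane, had signals of 1604, 2401 and 2515 at 0 h and 804, 1417 and 1889 at 4 h and fell by 0.65 ± 0.21 (adjusted p = 0.0245). Without replicate 2, 5 or 6 at 0 h, or 3 at 4 h, its adjusted p was 0.0502 to 0.0615, at log2 values of -0.61 to -0.50. With median centring the change was -0.40 (adjusted p = 0.21), and with quantile normalization -0.66 (adjusted p = 0.0271), still a fall. Cpt2, which hands the acyl group back to coenzyme A, had signals of 580, 622 and 687 at 0 h and 334, 478 and 597 at 4 h and fell by 0.43 ± 0.15 (adjusted p = 0.0311). Without replicate 5 or 6 at 0 h, or 1, 3 or 5 at 4 h, its adjusted p was 0.0516 to 0.0768, at -0.43 to -0.34. With median centring the change of Cpt2 was -0.19 (adjusted p = 0.434), and with quantile normalization -0.26 (adjusted p = 0.219). Both genes overlapped between the times.

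Crat, the acetyltransferase that buffers short chains, had signals of 546, 670 and 842 at 0 h and 294, 431 and 562 at 4 h. It fell by 0.61 ± 0.16 (adjusted p = 0.00812), and its adjusted p was 0.132 with median centring and 0.0656 with quantile normalization. Its probe sets disagreed: the 2 further ones gave 0.16 and 0.27 (adjusted p = 0.75 and 0.691), and the mean of the 3 gave -0.06 (adjusted p = 0.814).

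In mitochondrial beta oxidation the chain length classes of acyl-CoA dehydrogenase differed in their values. Acadm, for medium chains, had signals of 4062, 4581 and 5337 at 0 h, 3303, 4132 and 5142 at 1 h and 1798, 2462 and 2952 at 4 h. Its 4 h arrays were below all earlier ones, and the log2 fold change was -0.96 ± 0.14 (adjusted p = 4.83e-05). Acadl, for long chains, had medians of 3245, 2970 and 3343 with a log2 fold change of 0.10 ± 0.18 (adjusted p = 0.701), and Acadvl, for very long chains, had -0.16 ± 0.13 (adjusted p = 0.373). The differences between the dehydrogenases were not tested.

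Hadha and Hadhb encode the subunits of the trifunctional protein, which completes the cycle for long chains, and they are transcribed away from each other from starts on either side of the Hadhb window printed above. Hadhb fell by 0.41 ± 0.14 (adjusted p = 0.0295), from signals of 4589, 5712 and 6168 at 0 h to 2982, 4155 and 5324 at 4 h. Without replicate 1, 4 or 5 at 0 h, or 3 at 4 h, its adjusted p was 0.0522 to 0.0729, at -0.40 to -0.31. With median centring the change of Hadhb was -0.17 (adjusted p = 0.45), and with quantile normalization -0.53 (adjusted p = 0.00692). The probe set used may bind related transcripts, and the further ones gave -0.40 and -0.48 (adjusted p = 0.00531 and 0.127). Hadha had signals of 1514, 1633 and 2050 at 0 h, 1602, 1759 and 1894 at 1 h and 1311, 1432 and 1592 at 4 h, with a log2 fold change of -0.23 ± 0.10 (adjusted p = 0.102). All arrays of Hadha at 4 h were below all of 1 h, yet the change between those times was -0.27 ± 0.10 (adjusted p = 0.0664). A fit blocked on code range gave an adjusted p of 0.0331, and with median centring the change was -0.04 (adjusted p = 0.842).

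**Figure D3:**
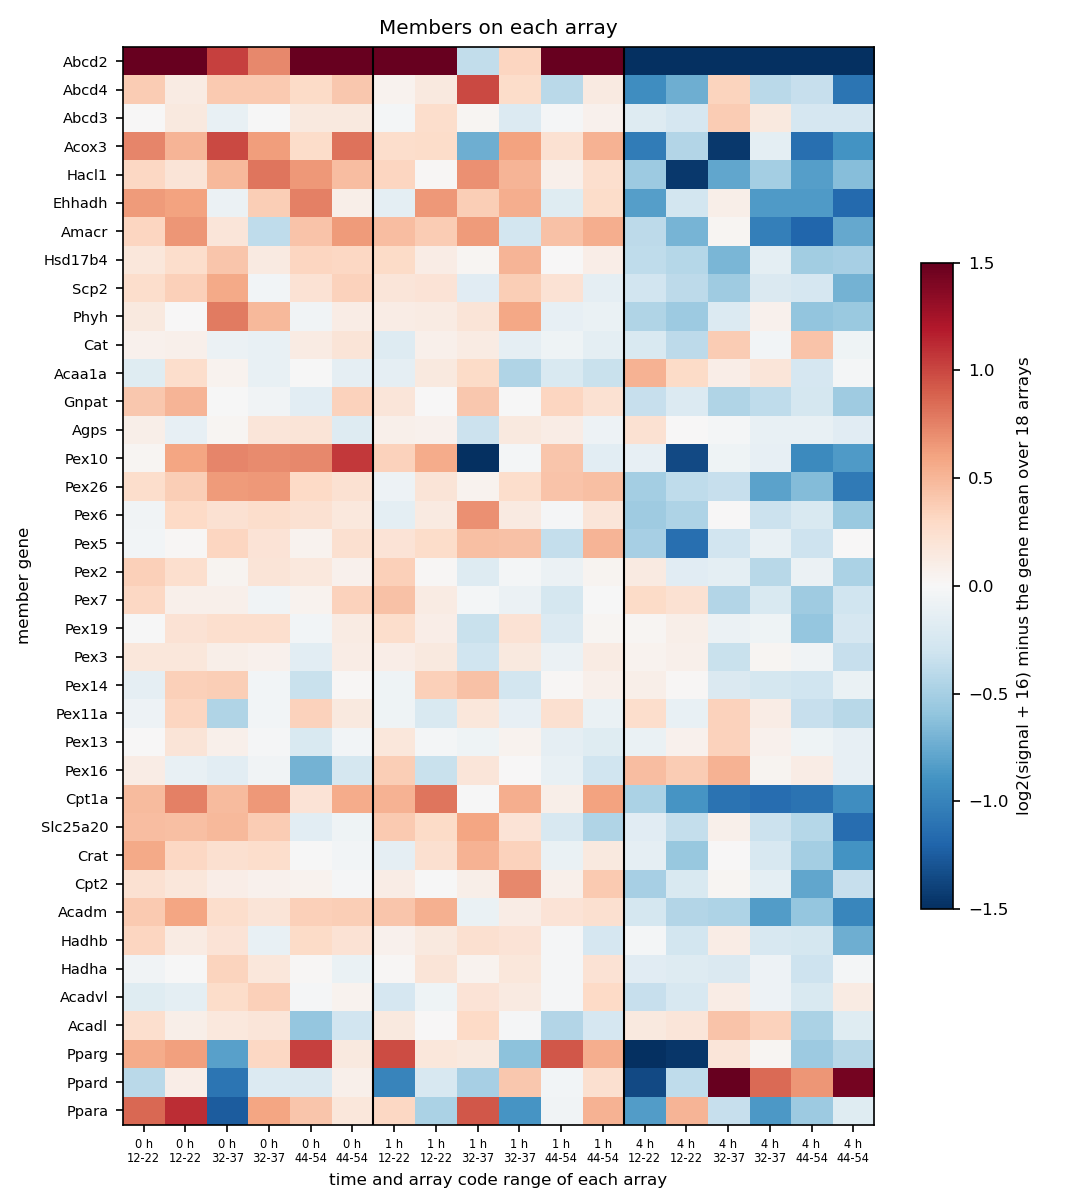
Log2(signal + 16) of each of the 38 genes minus its mean over 18 arrays (colour, limited to 1.5 on either side), for arrays ordered by time and code range. The 6 arrays at 4 h are blue for Abcd2, Hacl1, Cpt1a, Acadm and Pex26, rows such as Agps and Pex13 stay pale, and the row of Ppara is uneven within each time.

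Of the receptors, Ppara was not tested, because its brightest probe set exceeded its array's median on 0 of 18 arrays. Its signals ran from 2.20 to 77.7 at 0 h, from 7.55 to 66.8 at 1 h and from 7.91 to 45.9 at 4 h. Pparg, a regulator of lipid handling in macrophages and adipocytes, had signals of 242, 602 and 912 at 0 h, 280, 571 and 881 at 1 h and 115, 310 and 500 at 4 h. It fell by 0.98 ± 0.37 (adjusted p = 0.0484) against 0 h and by 1.03 ± 0.37 (adjusted p = 0.0495) against 1 h, with overlapping arrays. Leaving out any 1 of 13 arrays (replicates 1, 3, 4, 5 and 6 at 0 h, 1, 2, 3 and 6 at 1 h, and 1, 3, 5 and 6 at 4 h) put the adjusted p against 0 h between 0.0504 and 0.116, at -1.03 to -0.75. With median centring the change of Pparg against 0 h was -0.73 (adjusted p = 0.149), and with quantile normalization -0.77 (adjusted p = 0.125). Ppard, the widely expressed receptor of the family, had signals of 55.7, 117 and 149 at 0 h and 44.4, 244 and 468 at 4 h and a log2 fold change of 0.77 ± 0.41 (adjusted p = 0.164).

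The 4 h values of the receptors were spread over the code ranges. Pparg went from 655 and 682 at 0 h to 115 and 149 at 4 h in the range 12 to 22, and from 912 and 488 to 296 and 324 in 44 to 54. In the range 32 to 37 it was 242 and 550 at 0 h and 500 and 447 at 4 h. The log2 changes were -2.22, -1.07 and 0.36 in these ranges, in that order. Ppard went from 100 and 149 to 44.4 and 102 in 12 to 22, from 55.7 and 117 to 468 and 261 in 32 to 37, and from 116 and 146 to 228 and 399 in 44 to 54. Its log2 changes were -0.72, 1.91 and 1.12.

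A test of the difference itself, an F test over the 3 ranges, called 0 of the 37 genes, where 0.837% of all probe sets were called. Pparg had the lowest adjusted p, 0.138 (unadjusted 0.00301), followed by Ppard at 0.182 (unadjusted 0.00557). At an unadjusted p under 0.05 there were 5 genes, with Abcd2, Abcd3 and Pex11a beside these 2, and 2653 of all probe sets. For Abcd2 all 4 h signals are under the pseudocount, so its value here mostly repeats its 0 h levels. Among the 22 genes that fell at 4 h, 21 had a negative change in each of the 3 ranges, Pparg being the other. The 22 were called on these same arrays, so a shared sign across the ranges was largely set by that choice. The median change of the 37 genes was -0.62 in 12 to 22, -0.40 in 32 to 37 and -0.60 in 44 to 54. Medians over all probe sets within each range are not given here, so these values lack a background.

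**Figure D4:**
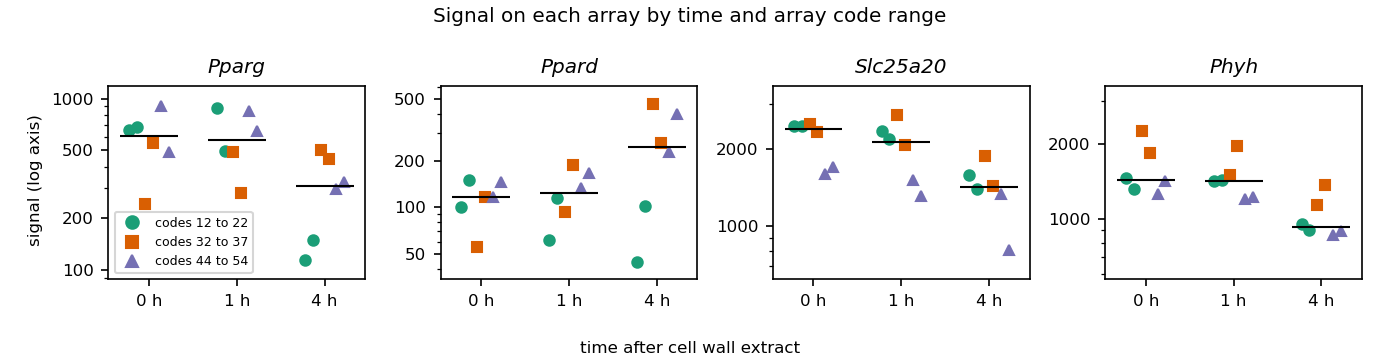
Signal (log axis) on each of the 18 arrays at 0 h, 1 h and 4 h for Pparg, Ppard, Slc25a20 and Phyh, with shape and colour for the array code range and a line at the median of 6 arrays. At 4 h the arrays of codes 12 to 22 are the lowest for Pparg and Ppard, those of 44 to 54 lie low for Slc25a20, and those of 32 to 37 lie high for Phyh.

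The code ranges were also compared over all 18 arrays, as averages over the times. In 32 to 37 against 12 to 22, with time as a covariate, 2 of the 37 genes were higher and 3 lower, where 9.65% of all probe sets were higher and 8.12% lower. In 44 to 54 against 12 to 22, 0 were higher and 3 lower, beside 10.5% and 8.66%, and in 44 to 54 against 32 to 37, 1 was higher and 4 were lower, beside 8.87% and 8.25%. In these values the set's shares of lower genes are near the background, and its shares of higher genes are below it. These differences from the background were not tested. With median centring the counts in 44 to 54 against 12 to 22 became 0 higher and 11 lower, beside 7.99% and 14.5% of all probe sets, and with quantile normalization 0 and 5, beside 8.93% and 11.1%. With the 0 h arrays alone, 2 per range, 0 genes were called in each comparison. The share of all probe sets called in that smaller fit is not given here, so this count says nothing particular to these genes.

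Acadl, the long chain dehydrogenase, separated by range. Its signals (lowest, median, highest of 6 arrays) were 2988, 3297 and 3566 in 12 to 22, 2952, 3530 and 4014 in 32 to 37 and 1984, 2322 and 2629 in 44 to 54. No array of 44 to 54 reached the lowest of the other ranges. The log2 difference of 44 to 54 was -0.51 ± 0.10 against 12 to 22 (adjusted p = 0.00178) and -0.60 ± 0.10 against 32 to 37 (adjusted p = 5.17e-04). Slc25a20 was lower in 44 to 54 as well, with log2 differences of -0.59 ± 0.12 (adjusted p = 0.00301) and -0.65 ± 0.12 (adjusted p = 0.00166), with medians of 2282, 2207 and 1424 in the 3 ranges in order. Phyh was higher in 32 to 37, at a median of 1673 against 1371 in 12 to 22 and 1215 in 44 to 54, with differences of 0.41 ± 0.10 (adjusted p = 0.00808) and, for 44 to 54 against 32 to 37, -0.53 ± 0.10 (adjusted p = 0.0013). Acadvl was higher in 32 to 37 than in 12 to 22 by 0.37 ± 0.09 (adjusted p = 0.0128).

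Abcd2 had its lowest signals in 32 to 37, where the 0 h arrays read 329 and 264 against 605 and 705 in 12 to 22 and 569 and 1131 in 44 to 54. The log2 difference was -0.96 ± 0.31 against 12 to 22 (adjusted p = 0.042), and 44 to 54 stood 1.14 ± 0.31 above 32 to 37 (adjusted p = 0.0178). Pex7 was highest in 12 to 22, with differences of -0.37 ± 0.12 for 32 to 37 (adjusted p = 0.0433) and -0.36 ± 0.12 for 44 to 54 (adjusted p = 0.0461). Acadm differed by -0.35 ± 0.10 in 32 to 37 against 12 to 22 (adjusted p = 0.0312), and Crat by -0.42 ± 0.13 in 44 to 54 against 32 to 37 (adjusted p = 0.0325). Several of these calls lie close to the threshold. For Abcd2 in 32 to 37 against 12 to 22 the adjusted p was 0.0501 to 0.0893, at -0.98 to -0.74, without any 1 of 9 arrays (replicates 2, 3, 5 and 6 at 0 h and 1, 3, 4, 5 and 6 at 1 h). For Acadm it was 0.0515 to 0.0683, at -0.35 to -0.30, without any 1 of 8 (3 and 6 at 0 h, 3 to 6 at 1 h, 4 and 5 at 4 h). For Crat it was 0.0556 to 0.0776, at -0.42 to -0.36, without any 1 of 7 (1 and 4 at 0 h, 1, 3 and 4 at 1 h, 2 and 3 at 4 h). Each call of Pex7 was lost without any 1 of 13 arrays: in 32 to 37 at 0.0514 to 0.0957 (1, 2, 3 and 5 at 0 h, 2 to 5 at 1 h, 2 to 6 at 4 h), at -0.38 to -0.32, and in 44 to 54 at 0.053 to 0.105 (1, 2, 3 and 5 at 0 h, 1, 2, 4 and 5 at 1 h, 1, 3, 4, 5 and 6 at 4 h), at -0.38 to -0.30.

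Markers of other cells also differed by range. Stromal markers had a mean log2 value of 7.01 in 12 to 22, 8.13 in 32 to 37 and 9.41 in 44 to 54, with summed signals from 1093 to 1832, 3098 to 6021 and 11870 to 17510. The neutrophil markers stood at 7.67, 7.17 and 6.34 and the cell cycle genes at 10.57, 11.56 and 9.69, while the macrophage markers stood at 12.36, 12.61 and 12.70. Their part in the range differences of Acadl, Slc25a20, Phyh, Abcd2 and the others was not tested.

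Genes of neighbouring functions, in lists separate from the 38, were counted at 4 h against 0 h; at 1 h 0 genes of any list passed. The shares to read these counts against are 23.1% of all probe sets falling and 9.93% rising, or 11.2% and 16.2% with median centring and 14.8% and 12.5% with quantile normalization. Of 27 tested genes of other peroxisomal proteins, 14 fell and 0 rose, with a median log2 change of -0.62. Crot, which makes medium chain carnitine esters for export from the peroxisome, fell by 2.04 ± 0.11 (adjusted p = 1.92e-09) from a median of 1787 to 422. Idh1, an NADPH source of cytosol and peroxisome, fell by 1.16, the membrane protein gene Pxmp4 by 1.13 and the coenzyme A hydrolase gene Nudt7 by 1.13. With median centring 10 of the 27 fell, and with quantile normalization 12.

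Among 17 further genes of mitochondrial fatty acid oxidation 8 fell and 1 rose, with a median of -0.37 (4 falls and 1 rise with median centring, 6 and 1 with quantile normalization). The thiolase gene Acaa2 fell by 1.00, the thioesterase gene Acot2 by 0.98, the dehydrogenase gene Hadh by 0.90 and the hydratase gene Echs1 by 0.77. Acot9, a mitochondrial acyl-CoA thioesterase, rose by 1.19 ± 0.14 (adjusted p = 4.19e-06), from a median of 2126 to 4883. The calls for Acot2 and Echs1 were lost with median centring (adjusted p = 0.0992 and 0.0623), and that for Acot2 also with quantile normalization (0.0797).

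Of 18 tested genes of fatty acid uptake and activation, 5 rose and 2 fell, with a median of -0.13 (5 rises and 1 fall with a median of 0.11 with median centring, 5 and 2 with quantile normalization). Fabp4, a fatty acid binding protein of macrophages and adipocytes, rose by 2.57 ± 0.48 (adjusted p = 4.86e-04), from a median of 505 to 3872, and Fabp3, its relative of muscle and heart, rose from 251 to 1081 (adjusted p = 4.67e-05). The acyl-CoA synthetase gene Acsl5 rose by 0.77 and Acbd3, of the acyl-CoA binding domain family, by 0.64. Plin2, which coats lipid droplets, fell by 0.63 and Acbd4 by 0.62. The fall of Plin2 was lost with median centring (adjusted p = 0.147) and that of Acbd4 with quantile normalization (adjusted p = 0.0963).

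In fatty acid synthesis and desaturation 6 of 18 genes fell and 1 rose, with a median of -0.34 (3 falls and 2 rises with median centring, 5 and 0 with quantile normalization). The desaturase genes Scd2 and Fads1 fell by 1.42 and 1.17, the elongase gene Elovl6 by 1.01 and Acss2, an acetyl-CoA synthetase, by 0.50 (adjusted p = 0.0498, and 0.39 with median centring). Hsd17b12, a reductase of chain elongation, rose by 0.40 (adjusted p = 0.0172, and 0.111 with quantile normalization). Of 22 PPAR partners, coregulators and targets, 8 fell and 3 rose, with a median of -0.33 (5 falls and 6 rises with median centring, 6 and 4 with quantile normalization). Lpin1, a phosphatidate phosphatase and coactivator, fell by 1.98, the mitochondrial deacetylase gene Sirt3 by 1.64 and the coactivator genes Ncoa3 and Ncoa1 by 1.51 and 1.28. The coactivator gene Pprc1 rose by 1.20 (adjusted p = 3.89e-04), the receptor gene Esrra by 0.57 and Crebbp by 0.37 (adjusted p = 0.047, and 0.0934 with quantile normalization).

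**Figure D5:**
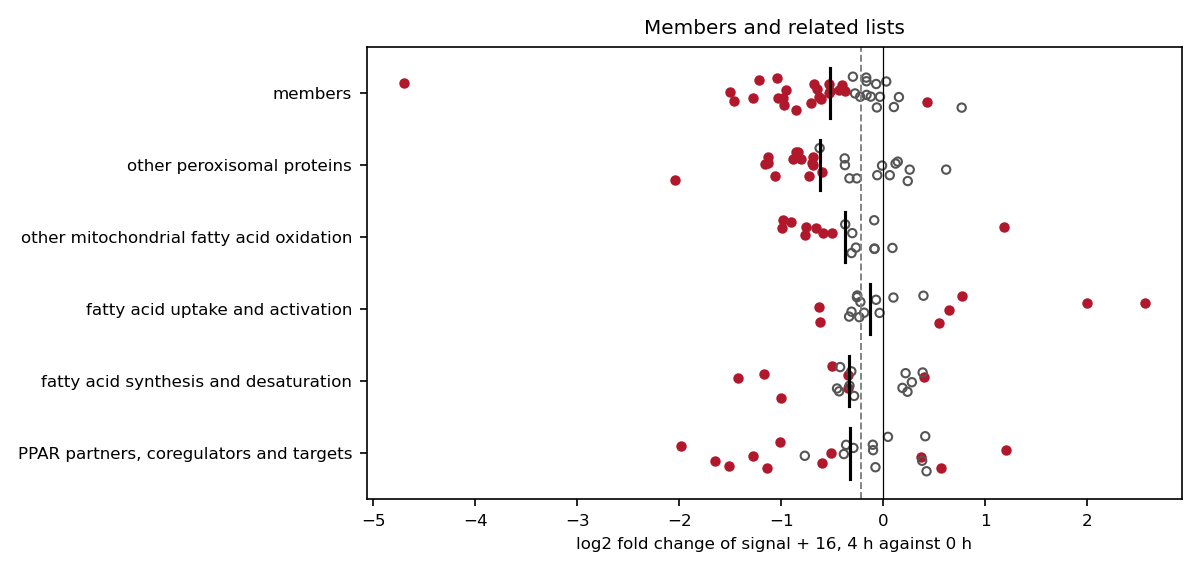
Log2 fold change of signal + 16 at 4 h against 0 h for the 37 tested genes and for 5 lists of related genes; each point is a gene, filled where adjusted p was under 0.05, with a short line at the list median and a dashed line at the median of all probe sets. The median is lowest, at -0.62, for other peroxisomal proteins, and the points furthest to the right, Fabp4 at 2.57 and then Fabp3, belong to uptake and activation.

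Further probe sets of the 38 genes gave a second reading of the 4 h change on the same RNA. Of 30 further probe sets tested, 15 fell and 0 rose, beside 23.1% and 9.93% of all probe sets. With median centring 6 fell and 0 rose, beside 11.2% and 16.2%, and with quantile normalization 7 and 0, beside 14.8% and 12.5%. Among the 21 that belong to 12 of the fallen genes, 12 fell and 2 were above 0, both of Crat. Those 12 genes were picked by a fall on the same arrays, so falls among their further probe sets were largely set by that choice. Of the 9 that belong to other genes, 3 fell, those of Pex3 and Pex19 given above.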

How the data were processed

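The deposited table holds signal intensities on a linear scale, made with MAS5 and GCOS per the submitters' processing notes, which give no version or setting. In the deposited intensities every array has the same trimmed mean of 500, without the outer 2% at each end. Control probe sets (64) were left out. Of 45101 probe sets, 34958 carry 1 gene symbol in the platform annotation (34754 matched the RefSeq table of GRCm38.p6), 932 several and 9211 none. Values were taken as log2(signal + 16). A probe set was tested if it exceeded its array's median on 4 or more of 18 arrays (25804, or 57.3%, for 11733 genes). R 4.3.3 and limma 3.58.1 (lmFit, eBayes) fitted a mean per time over 18 arrays, a mean per code range with time as covariate, and a mean per time and range. Benjamini-Hochberg adjustment ran over all 25804. The code was tested on simulated data. Replicate numbers follow accession order and pair nothing. The members and lists were chosen with earlier results of these data known. Every tested member was described. From each related list up to 4 rises and 4 falls with the largest change were named. Arrays carry no read depth: their number limits the precision. Alternatives were other pseudocounts, filters, scalings, fits, probe set choices and leaving out each array.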

Additional observations from a re-analysis of the deposited data

Results flagged for a closer look

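In each gene and time the highest and the lowest of the 6 arrays were compared with the rest, and 7 of 114 such groups had an array set apart. Chance sets apart about 1 in 20 groups. In all of these the array was low. At 0 h, Pex3 read 830.1 on replicate 1 (codes 44 to 54), where the others read 973 to 1053, and Pex6 read 1305 on replicate 5 (12 to 22), where the others read 1524 to 1671. At 1 h, replicate 3 (32 to 37) was low for Acox3, at 153.5 against 313 to 411.5, and for Pex10, at 41.34 against 130 to 224.2. Amacr read 166.8 on replicate 4 at 1 h (32 to 37), against 271.6 to 325.8, and Pex5 read 213.2 on replicate 1 at 1 h (44 to 54), against 324.5 to 403.6. At 4 h, Hacl1 read 87.16 on replicate 6 (12 to 22), against 142.8 to 181.4.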

How the results depend on the processing

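Of the 22 members that fell at 4 h, 11 kept their call under every alternative run. Among them Ehhadh had 28 alternatives, where Cpt1a had 29. It was too dim for a stricter filter, so its call was not put to that setting. Over 3551 values of single members under an alternative, 3331 kept direction and side of the threshold, 206 lost it, 12 gained it and 2 reversed. Members called at 4 h against 0 h numbered 23, or 12 with median centring (11 falls and 1 rise), 16 without the filter and 18 to 23 with an array left out. Against 1 h the 18 calls, all falls, became 10 with median centring, which are 9 falls and a rise of Acaa1a (0.48, adjusted p = 0.0433), and 11 falls with quantile normalization. Of all probe sets, 8% fell and 13.4% rose against 1 h with median centring. With quantile normalization 10.3% fell and 9.32% rose. The value for Slc25a20 4 h against 1 h passed the threshold without replicate 2 at 1 h or 2 at 4 h (adjusted p 0.0345 and 0.0443), and that for Pex10 4 h against 1 h without replicate 3 at 1 h (0.0237). Without replicate 5 at 4 h, Ppard 4 h against 0 h rose by 1.13 (adjusted p = 0.0157) and Ppard 4 h against 1 h by 1.03 (0.0341). For 32 to 37 against 12 to 22 the 5 became 0 on the arrays at 0 h, 2 without the filter, 1 without time as covariate and 2 to 5 with an array left out. For 44 to 54 against 12 to 22 the 3 became 0 on the arrays at 0 h, 1 without time as covariate, 5 with quantile normalization and 11 with median centring. For 44 to 54 against 32 to 37 the 5 became 0 on the arrays at 0 h and 1 without time as covariate. Crat at 4 h against 1 h reversed to 0.0024 with the mean of its probe sets, and Pex7 in 44 to 54 against 12 to 22 to 0.0116 on the arrays at 0 h. The arrays at 0 h are 2 per range, so fewer samples enter that fit, and the filter changes how many probe sets are tested; for the other settings the cause was not tested. Against 1 h, Abcd4 lost its call without replicate 3 at 1 h, or 3 or 5 at 4 h (adjusted p 0.0546 to 0.0614), Phyh without replicate 3, 4 or 6 at 1 h, or 1, 3, 5 or 6 at 4 h (0.0526 to 0.077), and Pparg without replicate 3, 4, 5 or 6 at 0 h, 1, 2, 3, 5 or 6 at 1 h, or 1, 3, 5 or 6 at 4 h (0.0566 to 0.115). Dim signals limit Ppara, Ehhadh and Abcd2 at 4 h, where the pseudocount sets the size of a change. No paired analysis was possible because the replicate numbers follow accession order. A block for the code range gave 23 again at 4 h, and against 1 h 20, adding Slc25a20 and Hadha. Shares of all probe sets in the blocked fit are not given here, so these counts lack a background.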
